A study of Mus musculus with 22 samples.

Results

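The genes described are 10 markers of lymphocytes in mouse liver, namely the T cell genes Cd3e, Cd3d, Cd3g, Cd4 and Cd8a, the natural killer (NK) and cytotoxic cell genes Nkg7 and Klrb1c, and the B cell genes Cd79a, Cd79b and Ms4a1. They were chosen by gene symbol, with earlier results of these data known, and each stood on exactly 1 row of the expression table, so all 10 of 10 were measured among 24011 genes. Total liver RNA was taken at 12 weeks of age from 22 mice, all of them C57BL/6J females, and each mouse had 1 Affymetrix MoGene array. Wild-type mice (WT) ate regular chow (WT_chow, n = 5) or chow with 0.1% ursodeoxycholic acid (UDCA), a hydrophilic bile acid (WT_UDCA, n = 6). Cyp2c70 knockout mice (KO-CYP2C70) ate the same diets (KO_chow, n = 5, and KO_UDCA, n = 6). The UDCA diet was given for 7 weeks from the age of 5 weeks.

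Muricholic acids, the hydrophilic bile acids of mice, are products of the enzyme CYP2C70, and mice without it have a more hydrophobic, human-like bile acid pool. T cells recognise antigen through a receptor whose signal is carried by the CD3 chains, with CD4 or CD8 as coreceptor. B cells signal through CD79A and CD79B, the partners of surface immunoglobulin. The liver holds many lymphocytes even in health, among them NK cells, and lymphocytes gather around bile ducts in several bile duct diseases. In whole-liver RNA, fewer lymphocytes and less RNA per lymphocyte cannot be told apart.

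The 3 CD3 genes are neighbours on chromosome 9. In RefSeq (GRCm38.p6) the start sites of Cd3g and Cd3d lie 1355 bases apart and point away from each other, and that of Cd3e lies 27825 bases beyond that of Cd3d. RefSeq start windows were at hand for 7 of the 10 genes. The 250 bases before the start site are shown for the 3 CD3 genes, because Cd3g passed a test below, and for Cd8a on chromosome 6, the other gene that did. Sequences run 5′ to 3′ on the gene's strand, and capitals mark GGAAGT or its reverse complement, the core of sites for ETS factors.

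Cd3e (chr9:45009612-45009861, minus strand): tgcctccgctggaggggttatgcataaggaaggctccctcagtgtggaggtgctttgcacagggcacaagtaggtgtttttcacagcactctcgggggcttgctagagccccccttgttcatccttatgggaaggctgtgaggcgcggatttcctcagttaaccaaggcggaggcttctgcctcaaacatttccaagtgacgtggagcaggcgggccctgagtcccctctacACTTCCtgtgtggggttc
Cd3d (chr9:44981536-44981785, plus strand): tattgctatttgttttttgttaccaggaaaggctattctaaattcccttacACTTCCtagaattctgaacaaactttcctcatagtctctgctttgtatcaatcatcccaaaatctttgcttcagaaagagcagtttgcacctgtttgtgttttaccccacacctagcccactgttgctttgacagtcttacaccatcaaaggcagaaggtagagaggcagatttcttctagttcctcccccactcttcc
Cd3g (chr9:44980432-44980681, minus strand): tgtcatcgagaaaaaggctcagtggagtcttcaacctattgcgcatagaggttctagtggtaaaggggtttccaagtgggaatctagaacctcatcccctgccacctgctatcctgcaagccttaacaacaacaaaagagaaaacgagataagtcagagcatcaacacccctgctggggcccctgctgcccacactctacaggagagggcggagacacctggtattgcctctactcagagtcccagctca
Cd8a (chr6:71373177-71373426, plus strand): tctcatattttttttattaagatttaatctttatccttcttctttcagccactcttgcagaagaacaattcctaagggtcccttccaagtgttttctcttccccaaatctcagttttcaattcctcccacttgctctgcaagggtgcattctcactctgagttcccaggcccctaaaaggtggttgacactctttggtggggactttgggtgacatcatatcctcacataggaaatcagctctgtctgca

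The ETS letters stood 1 time each in the windows of Cd3e, Cd3d, Klrb1c and Cd79a, and in 19.7% of all 32851 windows of this length. TGTGGT, the core of RUNX sites, stood 1 time each in those of Nkg7 and Klrb1c and in 14.0% of all windows. TATAAA was in none of the 7 and in 12.4% of all windows. Both strands were searched, and a match describes letters, not a bound site.

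Array medians were close to each other (intensities of 28.7 to 31.1). Hepatocyte markers summed to intensities between 53156 and 58153 in every group. For Cyp2c70 itself the log2 level averaged 11.49 in WT_chow (SD 0.14), 11.43 in WT_UDCA (SD 0.14), 10.65 in KO_chow (SD 0.12) and 10.51 in KO_UDCA (SD 0.17), so both knockout groups were lower but signal remained. Which part of the gene was deleted, and where the probes lie, is not stated in the labels. On the first principal component over all genes (26.7% of the variance), KO_chow replicates 2 and 5 scored 53.4 and 51.9, above the other KO_chow mice (15.7 to 32.5) and all other groups (-13.1 to -0.7). Results were therefore also computed without both.

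The lymphocyte markers were dim. The array median lay between 4.85 and 4.96 log2 units, and 5 of the 10 genes had a mean below it in all 4 groups (Cd3d, Cd4, Cd8a, Cd79a and Ms4a1). As a guide to unspecific signal, the 1091 rows of olfactory receptor genes, which liver is not known to use, had a 95th percentile between 4.37 and 4.71 on the arrays. Cd3e, Nkg7, Klrb1c and Cd79b exceeded that percentile on 22 of 22 arrays and Cd3g on 20. Cd79a exceeded it on 14, Cd4 on 7, Cd8a on 4, and Cd3d and Ms4a1 on 2 each. Probes differ in affinity, so this is no detection test. Cd79a exceeded it on 5 of 5 WT_chow arrays but on 1 of 5 KO_chow arrays. For Cd3d, Cd4, Cd8a and Ms4a1, most arrays gave no more signal than the brightest olfactory rows, and a change of such a transcript can be understated.

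**Figure D1:**
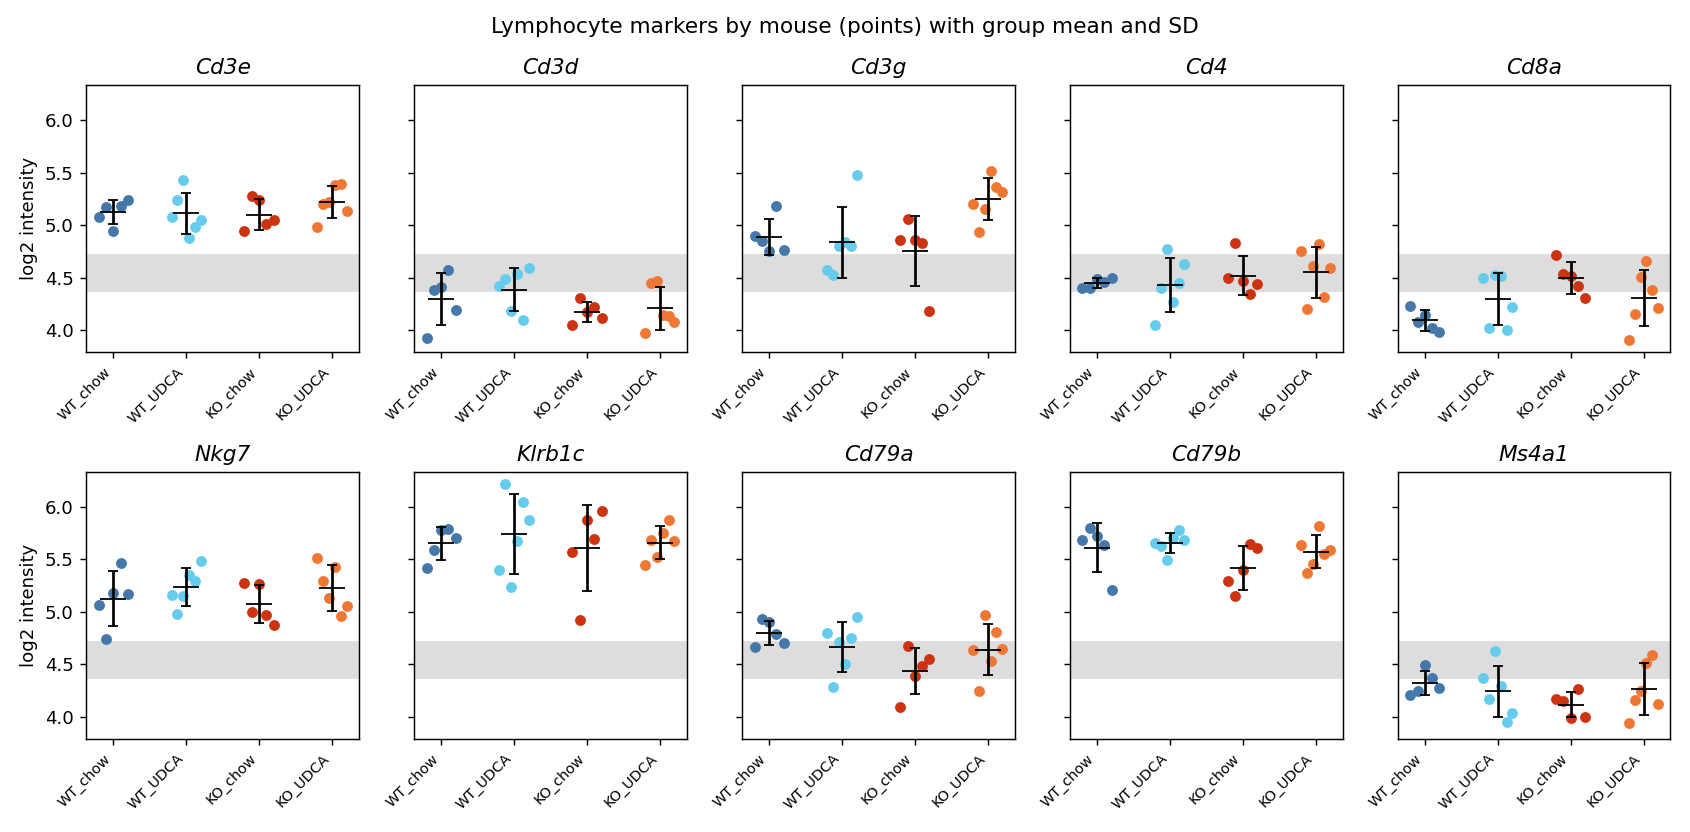
Log2 intensity of each lymphocyte marker in every mouse (points), by genotype and diet group, with the group mean and SD (black). The grey band spans the 95th percentile of olfactory receptor rows over the arrays, from 4.37 to 4.71. Cd3d, Cd4, Cd8a and Ms4a1 lie in or below the band in most mice, and the groups overlap in nearly every panel.

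The comparison of KO_chow with WT_chow asked what loss of Cyp2c70 does on regular chow. Among the lymphocyte markers, the array signal of Cd8a was 1.33-fold higher and passed the test, and the other 9 did not pass. In WT_chow that signal exceeded the olfactory percentile on 0 of 5 arrays, so the fold is one of array signal from a level near the floor and not of the transcript. The test was limma's moderated test on log2 intensity, two-sided, with Benjamini-Hochberg adjustment over all 24011 genes and a threshold of 0.05. By that rule 13.7% of all genes were called in this comparison, against 1 of these 10. The median log2 change of the 10 genes was -0.09, beside -0.04 for all genes.

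Cd8a, the coreceptor chain of cytotoxic T cells that some dendritic cells also carry, read 4.23, 4.08, 4.14, 4.02 and 3.98 log2 units in WT_chow replicates 1 to 5. It read 4.72, 4.53, 4.51, 4.42 and 4.31 in KO_chow replicates 1 to 5. Every KO_chow mouse lay above every WT_chow mouse. Groups did not overlap in 1 of the 10 markers, where 9.43% of all genes had such a separation. The log2 change was 0.41 (SE 0.13, 95% interval 0.14 to 0.68, limma adjusted p = 0.0379). WT_UDCA mice lay between 4.00 and 4.53 and KO_UDCA mice between 3.90 and 4.65, so both UDCA groups spanned most of the range of the chow groups. By mean the order was WT_chow (4.09), WT_UDCA and KO_UDCA (4.30 each) and KO_chow (4.50), and no neighbours in this order that were compared passed the test.

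The call for Cd8a was not stable. It was lost in 7 of 10 fits that left out 1 array (limma adjusted p from 0.0554 to 0.0900 without WT_chow replicate 2, 3, 4 or 5 or of 3 from KO_chow, namely replicates 1, 2 and 3), although the change stayed between 0.35 and 0.42 in these. It was also lost without KO_chow replicates 2 and 5 (log2 change 0.46, adjusted p = 0.0989). Cd8a exceeded the olfactory percentile in 3 of 5 KO_chow mice. Its partner chain gene Cd8b1 changed by 0.17 and did not pass (adjusted p = 0.491). Of 10 dendritic cell markers 2 were higher in KO_chow (Siglech and Fscn1) and the others did not pass, where 13.7% of all genes were called. The summed intensity of this list was 318 to 349 in KO_chow against 283 to 314 in WT_chow. The part of dendritic cells in the Cd8a signal was not tested.

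The CD3 genes, which every mature T cell uses, gave no call on chow. Cd3e, which encodes the epsilon chain, read 5.07, 5.17, 4.95, 5.18 and 5.24 in WT_chow replicates 1 to 5. In KO_chow replicates 1 to 5 it read 4.94, 5.27, 5.24, 5.01 and 5.04. Each group's mice spread through the range of the other, with a log2 change of -0.02 (SE 0.10, 95% interval -0.24 to 0.19, limma adjusted p = 0.929). Cd3d changed by -0.12 (95% interval -0.38 to 0.13) and Cd3g by -0.13 (95% interval -0.47 to 0.20). Cd4, the coreceptor of helper T cells, changed by 0.07 (95% interval -0.20 to 0.33) with WT_chow mice at 4.40 to 4.50 and KO_chow mice at 4.35 to 4.83.

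The NK and cytotoxic markers gave no call either. Klrb1c encodes NK1.1, the classical NK cell antigen of this strain. WT_chow mice lay between 5.41 and 5.79 and KO_chow mice between 4.93 and 5.96, with KO_chow replicate 2 the lowest, and Klrb1c changed by -0.05 (95% interval -0.41 to 0.31). Nkg7, a granule protein of cytotoxic lymphocytes, changed by -0.05 (95% interval -0.32 to 0.22). The groups overlapped for both genes.

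The 3 B cell genes all had lower means in KO_chow, and none passed the test. Cd79a read 4.67, 4.93, 4.90, 4.79 and 4.71 in WT_chow replicates 1 to 5 and 4.09, 4.67, 4.39, 4.48 and 4.55 in KO_chow replicates 1 to 5. Only KO_chow replicate 2, at 4.671 against 4.670, reached the lowest WT_chow mouse. The log2 change was -0.37 (SE 0.13, 95% interval -0.64 to -0.09, limma adjusted p = 0.0688), the second smallest p of the 10 genes. Cd79b, its partner chain, changed by -0.19 (95% interval -0.42 to 0.04, adjusted p = 0.303). Ms4a1, which encodes CD20, changed by -0.20 (95% interval -0.46 to 0.05, adjusted p = 0.326).

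The intervals bound what the arrays could have missed. In KO_chow against WT_chow, the 95% intervals of the 9 genes that did not pass ran from -0.64 to 0.33, which is at most 1.55-fold lower and 1.26-fold higher in intensity, and 8 of the 9 held 0. For the dim genes, and for Cd79a, which sets the lower bound and was at the olfactory level on 4 of 5 KO_chow arrays, these bounds hold for the array signal and not for the transcript.

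**Figure D2:**
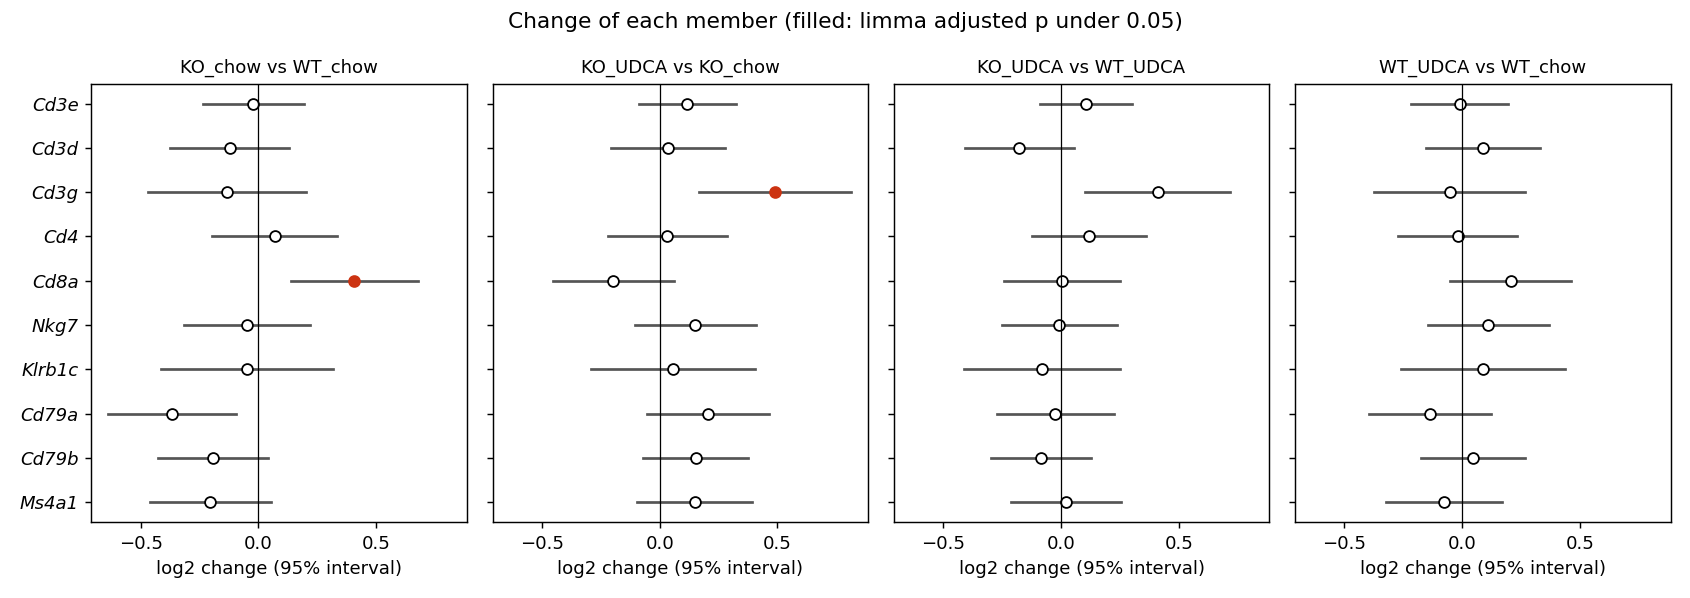
Log2 change of each lymphocyte marker (points) with its 95% interval (lines) in 4 comparisons, from the limma fit to all 22 arrays. Filled points passed an adjusted p of 0.05, which were Cd8a in KO_chow against WT_chow (0.41) and Cd3g in KO_UDCA against KO_chow (0.49). Every interval lies within a 2-fold change of array signal in either direction.

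The comparison of KO_UDCA with KO_chow asked what UDCA does in knockout mice. Cd3g was 1.40-fold higher in KO_UDCA, and the other 9 markers did not pass the test, where 11.2% of all genes were called. Groups did not overlap in 0 of the 10 markers and in 5.89% of all genes. The median log2 change of the 10 genes was 0.13, beside 0.03 for all genes. This comparison shares the KO_chow mice with the one above, so opposite signs in the pair carry no separate weight.

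Cd3g, the gamma chain of the CD3 complex, read 4.86, 5.06, 4.86, 4.83 and 4.18 in KO_chow replicates 1 to 5. In KO_UDCA replicates 1 to 6 it read 5.20, 4.93, 5.15, 5.51, 5.36 and 5.32. KO_chow replicate 5 was far below all others, and 5 of the 6 KO_UDCA mice lay above every KO_chow mouse. The log2 change was 0.49 (SE 0.16, 95% interval 0.17 to 0.81, limma adjusted p = 0.0427). Without KO_chow replicate 5 it was 0.35 (adjusted p = 0.163), and without KO_chow replicates 2 and 5 it was 0.40 (adjusted p = 0.214). In all, the call was lost in 7 of 11 fits without 1 array. Beside replicate 5, these left out KO_chow replicate 3 or one of KO_UDCA replicates 1, 3, 4, 5 and 6 (adjusted p between 0.0568 and 0.0897). It was also lost in a fit to only these groups (adjusted p = 0.0649) and with array weights (adjusted p = 0.0698). Cd3g in KO_UDCA was also above WT_UDCA, by 0.41 (95% interval 0.10 to 0.72), which did not pass (adjusted p = 0.818).

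The neighbours of Cd3g on chromosome 9, whose start windows are printed above, did not pass in this comparison. Cd3e changed by 0.12 (SE 0.10, 95% interval -0.09 to 0.32, limma adjusted p = 0.526) and Cd3d by 0.03 (SE 0.12, 95% interval -0.21 to 0.28, adjusted p = 0.900). These chains are made for the same receptor complex in the same cells. Whether the change of Cd3g differed from theirs was not tested.

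The other markers did not pass between KO_UDCA and KO_chow either. Cd8a changed by -0.20 (95% interval -0.45 to 0.06, adjusted p = 0.368). Cd79a changed by 0.20 (95% interval -0.06 to 0.46, adjusted p = 0.351), Cd79b by 0.15 and Ms4a1 by 0.15. Nkg7 changed by 0.15, Klrb1c by 0.06 and Cd4 by 0.03. The intervals of the 9 genes that did not pass ran from -0.45 to 0.46, at most 1.37-fold lower and 1.38-fold higher in intensity, and 9 of 9 held 0. Cd8a set the lower bound and Cd79a the upper. For these and the other dim genes, the bounds hold for the array signal and not for the transcript.

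Between genotypes under UDCA, 0 of the 10 markers passed (limma; 1 at an unadjusted p below 0.05, Cd3g), where 0.0167% of all genes were called. The intervals ran from -0.41 to 0.72. UDCA in wild-type mice changed 0 of the 10 (0 at an unadjusted p below 0.05), with 0% of all genes called (0 of 24011, and 1338 at an unadjusted p below 0.05), and intervals from -0.40 to 0.46. The genotype by diet interaction, which asks whether the UDCA effect differed between genotypes, passed for 0 of the 10 (2 at an unadjusted p below 0.05), where 2.67% of all genes were called. The lowest adjusted p-values were 0.205 for Cd3g (0.54, 95% interval 0.09 to 1.00) and 0.249 for Cd8a (-0.40, 95% interval -0.77 to -0.04).

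Most pairs of the markers did not vary closely together from mouse to mouse. Deviations of each mouse from its group mean were correlated between genes over the 22 arrays, as a description. Over 45 pairs of genes Pearson's r ran from -0.42 (Cd8a with Klrb1c) to 0.70 (Cd8a with Ms4a1), with a median of 0.05, and 29 of 45 were above 0. For genes of one complex r was 0.12 for Cd3e with Cd3g, 0.12 for Cd3d with Cd3g, 0.04 for Cd3e with Cd3d and 0.15 for Cd79a with Cd79b. The next highest pair was Cd3e with Ms4a1 (0.49). Values on 1 array share its RNA, and with 1 array per mouse measurement error and differences between mice cannot be told apart. The SD within groups, pooled over the 4 groups, was 0.16 log2 units for Cd3e, 0.27 for Cd3g and 0.30 for Klrb1c, the lowest and the 2 highest of the 10, beside a median of 0.20 over all genes.

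**Figure D3:**
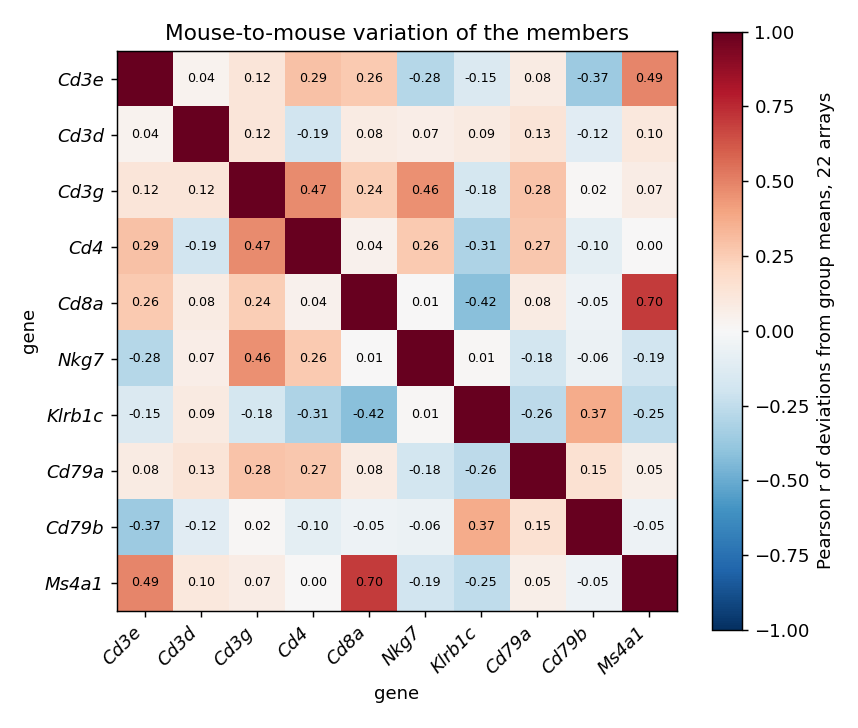
Pearson's r between the deviations of each pair of markers from their group means over 22 arrays, coloured from -1 (blue) to 1 (red). The highest value is 0.70 for Cd8a with Ms4a1, and the pairs within the CD3 and CD79 complexes lie between 0.04 and 0.15.

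Outside the 10 genes, those most alike by the same measure were sought for the mean of Cd3e, Cd3d and Cd3g, for the mean of Cd79a, Cd79b and Ms4a1, and for the mean of Nkg7 and Klrb1c. For the CD3 mean they were Fry (0.73), St8sia4 (0.72), Irgm2 (0.72), Tbc1d5 (0.71) and Tap1 (0.70). For the B cell mean they were Hpf1 (0.72), Slc25a4 (0.70), Plk4 (0.69), Mmrn1 (0.69) and Llph (0.69). For the NK mean they were Eci3 (0.74), Trpc5os (0.74), Ccdc125 (0.73), Sstr1 (0.70) and Fndc1 (0.70). Of these 15 genes 0 stood on any lymphocyte list. Outside the 10 markers, the lists of lymphocyte genes below hold 72 genes and the list of lymphocyte signals 13, of 24011 genes. Genes taken blindly would thus mostly give a count of 0 too, and it says nothing about the markers. Each r is the highest of a search through all genes, so its size carries no weight of its own.

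Wider lists of lymphocyte genes, which include the 10 markers, were called at about the share of all genes in KO_chow against WT_chow. Of 17 measured pan T cell genes 1 was higher and 1 lower, with a median log2 change of -0.02, and of 17 T cell subset genes 3 were higher, with a median of 0.10. Of 22 NK and cytotoxic genes 3 were higher (median -0.05), of 19 B cell genes 2 were higher and 1 lower (median -0.06), and of 7 plasma cell genes 1 was higher (median 0.20). Without the 10 markers, 11 of 72 genes of these lists were called, against 13.7% of all genes. T cell receptor and immunoglobulin gene segments, which are close in sequence, were called in 8 of 378 rows. In KO_UDCA against KO_chow, 9 of the 72 were called, 2 higher and 7 lower, against 11.2% of all genes. Under UDCA between genotypes and for UDCA in wild-type mice, 0 of the 72 passed (limma; 1 and 4 at an unadjusted p below 0.05), and 5 had an interaction, where 2.67% of all genes did. That count was 1 to 6 without 1 array and 2 without KO_chow replicates 2 and 5.

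Several of the called genes were also dim at baseline, and so were some genes that were not called, whose changes can be understated. Il7r, Lag3, Foxp3, Klrd1 and Ccl22 exceeded the olfactory percentile on 0 of 5 WT_chow arrays and Ncr1 on 2 of 5, so their folds below are of array signal near the floor and not of the transcript.

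Among T cell genes, the signal of Il7r, the interleukin 7 receptor chain, rose 2.33-fold on chow (log2 change 1.22, SE 0.21, limma adjusted p = 0.000392). Zap70, the kinase that binds the CD3 chains, fell 1.36-fold (-0.44, SE 0.09, adjusted p = 0.00153). Cd44, a hyaluronan receptor of activated T cells and of many other cells, rose 2.95-fold (adjusted p = 0.000747). Lag3, an inhibitory receptor, rose 1.33-fold (adjusted p = 0.0235), a call lost without WT_chow replicate 5 or KO_chow replicate 2 or 5 (adjusted p of 0.0575, 0.0615 and 0.0784), without both of these KO_chow mice (0.246) and with array weights (0.0599). For Il7r, Zap70, Cd44 and Lag3 the KO_chow and WT_chow mice did not overlap.

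In KO_UDCA against KO_chow, Il7r fell 2.03-fold, Cd44 2.60-fold and Ccr7, a lymph node homing receptor, by 0.52 on the log2 scale (limma adjusted p = 0.00173, 0.00202 and 0.0155). Foxp3, the factor of regulatory T cells, fell by 0.33 (adjusted p = 0.0296) and Zap70 rose 1.21-fold (adjusted p = 0.0386). Ccr7 lost its call without KO_chow replicate 2 (adjusted p = 0.0654), and Foxp3 when KO_chow replicate 2 or 3 or one of KO_UDCA replicates 3, 4 and 5 was left out (between 0.0506 and 0.112). Zap70 lost it when KO_chow replicate 2 or 5 or any of KO_UDCA replicates 2 to 6 was left out (between 0.0512 and 0.133). In a fit to only these groups, Foxp3 and Zap70 had adjusted p of 0.0807 and 0.0808, and with array weights Zap70 had 0.0837. Without KO_chow replicates 2 and 5, adjusted p was 0.0717 for Il7r, 0.129 for Ccr7, 0.194 for Foxp3 and 0.390 for Zap70, while Cd44 still passed at 0.0232.

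Among NK genes, Ncr1, which encodes the receptor NKp46, rose 1.36-fold on chow, Klrd1 (CD94) 1.60-fold in array signal and the chemokine gene Ccl5 1.45-fold (limma adjusted p = 0.0148, 0.0232 and 0.0175). Each call was lost without 1 WT_chow mouse, namely replicate 2 for Ncr1, 3 for Klrd1 and 1 for Ccl5 (adjusted p = 0.0518, 0.0762 and 0.0550), and for Klrd1 also without KO_chow replicates 2 and 5 (0.0955). Ncr1 also missed in a fit to only these groups (0.0527). With UDCA in knockout mice 0 of the 22 genes passed (limma), where 11.2% of all genes were called. At an unadjusted p below 0.05 there were 4 of the 22, and 5747 of all 24011 genes. Gzma (granzyme A) had the smallest p of these NK cell genes (log2 change 0.43, limma adjusted p = 0.0954). Perforin and granzyme genes, the killing machinery of these cells, were among those that did not pass on chow. Some granzyme genes were dim, such as Gzma with means of 3.76 in WT_chow and 3.51 in KO_chow. These means lie below the range of the olfactory percentile (4.37 to 4.71). Changes of such genes, that of Gzma with UDCA included, are of array signal and can be understated.

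Among B lineage genes, the adaptor gene Blnk rose 2.09-fold on chow and the coreceptor gene Cd72 by 0.73 on the log2 scale, while the scaffold gene Bank1 fell 1.58-fold (limma adjusted p = 9.11e-06, 0.000947 and 0.000179). Macrophages are also known to express Blnk and Cd72. With UDCA in knockout mice Blnk fell 1.71-fold and Cd72 1.69-fold, and Bank1 rose 1.46-fold (adjusted p = 0.000328, 0.000606 and 0.000995). These 3 genes passed in both comparisons under every alternative run. Their interactions passed too (-0.95 for Blnk, -0.75 for Cd72 and 0.58 for Bank1, adjusted p = 0.00574, 0.0336 and 0.0290), that of Blnk under all 30 alternatives, while Cd72 and Bank1 missed in 11 and 8 of 30, among them the fit without KO_chow replicates 2 and 5 (0.182 and 0.152). Derl3, an endoplasmic reticulum gene on the plasma cell list, rose 1.91-fold on chow and fell 1.95-fold with UDCA (limma adjusted p = 0.0139 and 0.0101). On chow its adjusted p was 0.0602 in a fit to only the groups compared. Of the 7 genes measured on that list, 1 was called in each comparison, namely Derl3, where 13.7% and 11.2% of all genes were called. Jchain, the joining chain of secreted immunoglobulin, changed by 0.46 and -0.36 (adjusted p = 0.548 and 0.654).

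Genes of signals that draw or sustain lymphocytes changed on both sides. Of 13 measured, 4 were higher and 1 lower in KO_chow than in WT_chow, with a median log2 change of 0.17. The share of all genes called was 13.7% in this comparison and 11.2% with UDCA in knockout mice. Cxcl10, a ligand of the chemokine receptor CXCR3 of T cells, was 3.56-fold higher (limma adjusted p = 0.00216). Ccl22 was 2.54-fold higher in array signal, from near the floor (limma adjusted p = 3.03e-06). Cxcl16 was 2.25-fold higher and Tnfsf13b (BAFF, a B cell survival factor) 1.31-fold (limma adjusted p = 6.86e-06 and 0.00661). Cxcl13, which draws B cells, fell 2.57-fold (adjusted p = 0.000801). With UDCA in knockout mice Cxcl10 changed by -1.65, Ccl22 by -0.95, Cxcl16 by -0.97, Tnfsf13b by -0.28 and Cxcl13 by 1.25, and all 5 passed (adjusted p = 0.00467, 0.000197, 6.1e-05, 0.0414 and 0.00151). Without KO_chow replicates 2 and 5, Cxcl10 and Tnfsf13b lost their calls on chow (adjusted p = 0.0621 and 0.0550). In the UDCA comparison without both mice, Cxcl10, Cxcl13 and Tnfsf13b did (0.125, 0.0530 and 0.208), and Tnfsf13b also lost its call there in 8 of 11 fits without 1 array (0.0551 to 0.117, when KO_chow replicate 1, 2 or 5 or any of KO_UDCA replicates 2 to 6 was left out), with array medians subtracted (0.0574), after quantile normalization (0.0685), in a fit to only these groups (0.102) and with array weights (0.0721).

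Lists of other leukocytes were counted in the same mice, with no test between lists. In KO_chow against WT_chow, where 13.7% of all genes were called, 11 of 11 genes of monocyte-derived macrophages were higher (median log2 change 1.35). So were 6 of 12 neutrophil genes (median 0.42) and 2 of 10 dendritic cell genes (median 0.15). Of 10 Kupffer cell genes 5 were lower and 1 higher (median -0.48). Of 12 genes common to all leukocytes 8 were higher (median 0.51), with Cd52, Itgb2 and Arhgdib at the smallest p, and Ptprc (CD45) rose by 0.60. Summed intensity of the macrophage list ran from 695 to 776 in WT_chow and from 1363 to 4733 in KO_chow, where replicates 2 and 5 had 4733 and 3498 and the other 3 mice 1363 to 2016. Summed intensity of the 10 lymphocyte markers was 290.2 to 332 in WT_chow, 295 to 347 in WT_UDCA, 285 to 306 in KO_chow and 295 to 358 in KO_UDCA. The KO_chow and WT_chow ranges of the lymphocyte sum overlapped and those of the macrophage sum did not, with or without replicates 2 and 5. Cd3d, Cd4, Cd8a and Ms4a1 gave no more signal than the brightest olfactory rows on most arrays. Part of the lymphocyte sum is therefore signal near the floor, and a change in it can be understated. How much macrophage RNA adds to the rises of Il7r, Cd44, Blnk and Cd72 was not tested.

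**Figure D4:**
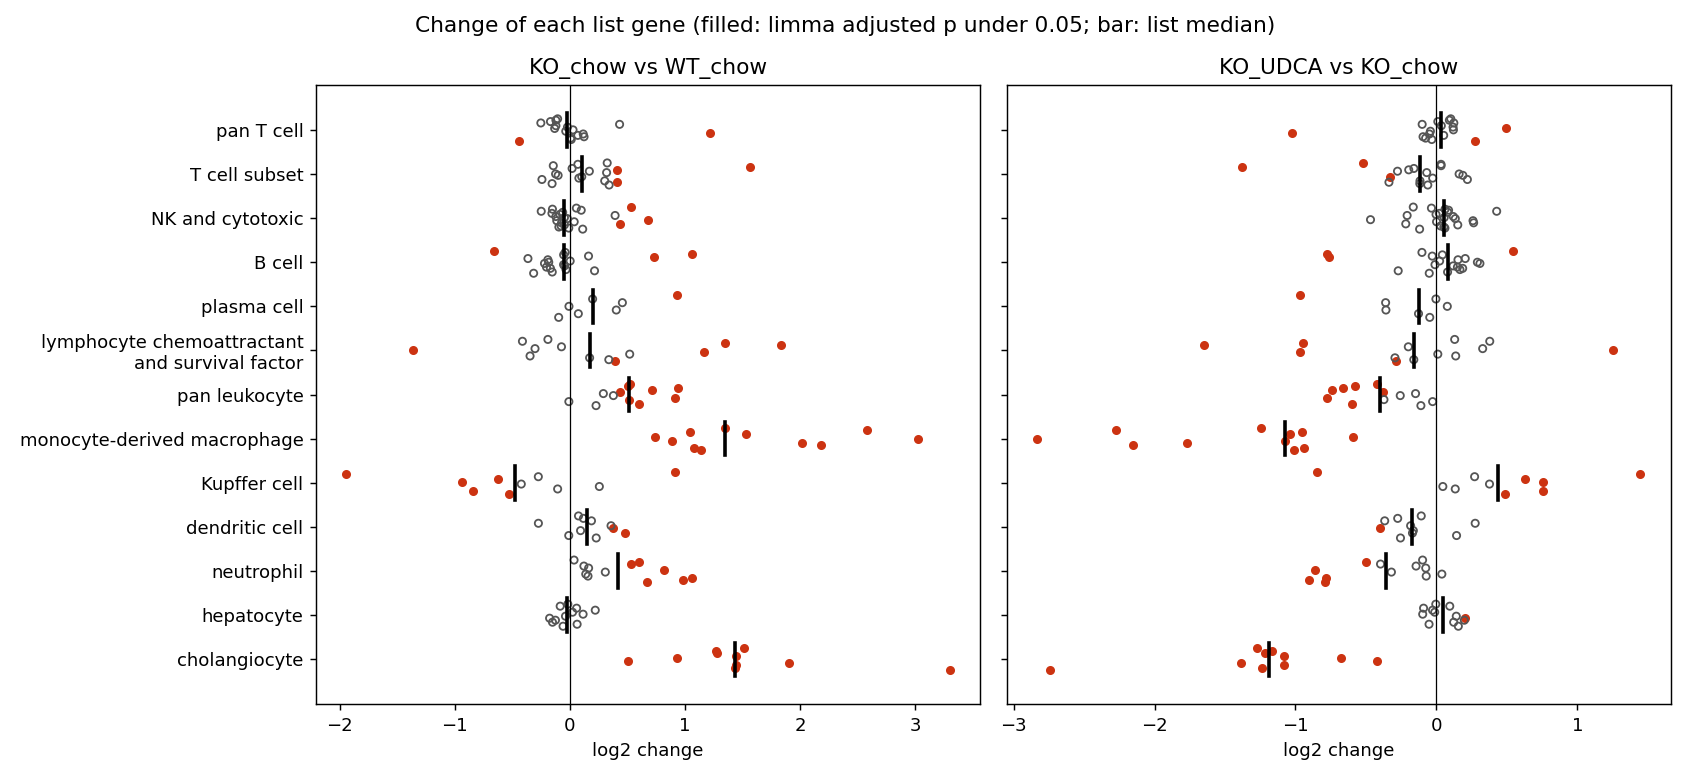
Log2 change of every measured gene of each list in KO_chow against WT_chow (left) and KO_UDCA against KO_chow (right), with filled points for a limma adjusted p below 0.05 and a bar at the list median. The pan T cell, NK and B cell lists centre near 0 (medians -0.02, -0.05 and -0.06 on the left) with a few called genes to the sides. Several genes of these lists had means below the olfactory percentile, so their changes can be understated. The macrophage and cholangiocyte lists are shifted whole (medians 1.35 and 1.43 on the left).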

How the data were processed

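Expression was measured in liver RNA of 22 mice, and 0 value columns lacked a sample. The values are unlogged intensity as deposited, which the labels describe as RMA output with a probe-level model; no RMA version appears in the submitters' processing notes, and no probe build is stated. Of 24973 rows, 24015 carried 1 gene symbol in the platform annotation, 0 several and 958 none. By gene identifier 23922 matched RefSeq (GRCm38.p6), which changed 0 symbols. For 4 symbols on several rows the brightest row was kept, leaving 24011 genes.

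Intensities were turned into log2 with no pseudocount or filter. In limma 3.58.1 (R 4.3.3), 4 group means were estimated over all 22 arrays; the script was tested on simulated data. Intervals are 95% confidence intervals from that fit. The number of arrays limits the precision. Alternatives were array medians subtracted, quantile normalization, a filter on dim genes, a pseudocount of 16, only the groups compared, array weights, a trended robust variance, a term for title numbers 16 to 22, and each array left out; leaving out KO_chow replicates 2 and 5 was added after the data were seen, and the component that sets them apart also separates the groups. Replicate numbers follow the order of the records and pair nothing. Each array is taken as 1 mouse, although the labels do not say so in words; p-values measure only the spread between these samples.

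The 10 genes and the 13 lists were chosen with earlier results of these data known. The naming rule takes all 10 genes, Cyp2c70, up to 4 called genes of each lymphocyte list (or that with the smallest p), up to 3 of other lists and the 5 genes most alike. Cd8b1, Jchain, Ptprc and Tnfsf13b lie outside it and were chosen after their values were seen. Some genes of the lists are not reported here.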

Additional observations from a re-analysis of the deposited data

Results flagged for a closer look

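Dixon's test was run on the 10 markers in each of the 4 groups, 40 combinations in all, and 3 stood out; chance gives about 1 in 20. Cd3g in WT_UDCA replicate 6 read 5.48 log2 units, above the other 5 mice at 4.53 to 4.84. Cd3g in KO_chow replicate 5 read 4.18, below the other 4 at 4.83 to 5.06, and the comparisons of KO_chow in the report rest on it in part. Cd79b in WT_chow replicate 5 read 5.21, below the other 4 at 5.64 to 5.80. The interaction passed for 0 of the 10 markers.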

How the results depend on the processing

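The count of 1 marker called fell to 0 in KO_chow vs WT_chow with the filter on dim genes (which leaves out Cd8a), with the term for title numbers and without KO_chow replicates 2 and 5, and in KO_UDCA vs KO_chow with only the groups compared, with array weights and without both mice; without 1 array it was 0 to 1 in either. In the other 3 comparisons it was 0 in every fit. No change that passed in either fit reversed its sign. Of 1017 changes of the markers that passed in neither the reported nor the other fit, 75 changed sign, with all values between -0.13 and 0.12; these are not counted as reversals. No paired analysis was possible because the groups share no replicate numbers in the labels.

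For all genes, KO_chow vs WT_chow gave 3295 calls, 2008 with only the groups compared, 1089 without KO_chow replicates 2 and 5, and 2219 to 3849 without 1 array. For KO_UDCA vs KO_chow these were 2701, 1454, 673 and 1632 to 3201. The interaction gave 642, or 207 without both mice and 301 to 1219 without 1 array. The genotypes under UDCA gave 4, or 2 with only the groups compared, 1 with the term for title numbers and 1 to 4 without 1 array. UDCA in wild-type mice gave 0, or 1 with only the groups compared and 0 to 1 without 1 array. Of the 72 lymphocyte list genes outside the 10, KO_UDCA vs KO_chow gave 9 calls and 5 without both mice, and the interaction 5, or 2 without both mice and 1 to 6 without 1 array. Some of these fits hold fewer samples, and the cause of the shifts was not tested. The interaction cannot be fitted with only some groups. Dim signal limits what can be seen for Cd3d, Cd4, Cd8a, Ms4a1 and, in KO_chow, Cd79a.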
